A study of Mus musculus with 10 samples.

Results

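The comparison between oocytes of older and of young female mice rests on 6 RNA sequencing libraries, 3 titled young and 3 titled aged, out of 10 deposited libraries. All genes with enough counts to be tested were its members, 12315 of the 18493 genes in the table. The remaining 4 libraries, titled spermidine, were not compared here. They entered the filter on counts, the scaling, the corrections and the estimate of the spread between libraries. With the 6 libraries alone 11885 genes were tested. Every library came from germ cells of the ovary. The young libraries carry the treatment tag Control and the aged libraries the tag Treatment, with no agent named for either. The sources used here give no strain, no age in months, no number of animals or oocytes per library and no oocyte stage. Age and any other difference between the 2 sets of animals cannot be told apart. Nothing in the labels says that the libraries of a group came from separate animals or pools. The p-values weigh the difference between the groups against a spread between libraries that may be technical only. RNA was copied by SMART-seq2, which starts full-length cDNA from an oligo dT primer on the poly(A) tail and then amplifies it.

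An oocyte makes and stores most of the messenger RNA that it will use during maturation and the first divisions of the embryo, and in the last stage of its growth transcription stops. What a library then shows is the balance of earlier synthesis, storage and decay. Many stored messages carry short poly(A) tails that are lengthened when they are translated, so capture by the tail reads the level and the tail together, and tail length was not measured. Ageing of the ovary is known to lower the number and the developmental competence of oocytes.

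Library totals ran from 24222185 to 28730790 counts over the 6 libraries, and 15326 to 15711 genes had at least 1 count. Levels are given as CPM, counts scaled by library totals that were first adjusted with TMM factors. A gene was called where edgeR's quasi-likelihood test gave a Benjamini-Hochberg adjusted p under 0.05. Oocyte markers were high in every library. The 14 markers of 15 found in the table summed to 28105 to 30612 CPM in the young and 28040 to 36226 CPM in the aged libraries. Granulosa and cumulus markers summed to 20.3 to 23.6 CPM and 20.3 to 24 CPM, with Amh at 0 in all 6 libraries. Of the 6 granulosa and cumulus markers that were tested, Fshr (log2 fold change 1.79, SE 0.41) and Nr5a2 (0.61, SE 0.20) were called higher in aged oocytes. The part of these cells in the results was not tested. Theca, stroma and vessel markers summed to 11.6 to 14 CPM and 13.7 to 15.4 CPM. Markers of blood and immune cells summed to 36.9, 1.36 and 17.4 CPM in young replicates 1, 2 and 3 and to 13.7, 0.758 and 0.807 CPM in aged replicates 1, 2 and 3, so both groups held libraries with and without them. Since the RNA is in bulk, fewer cells of a type and less RNA per cell cannot be told apart.

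Of 12315 genes tested, 1196 (9.71%) were higher and 993 (8.06%) lower in aged oocytes, 17.8% in all. The groups did not overlap in 4922 genes (40.0%). Changes of at least 2-fold made up 623 of the higher genes (5.06% of all tested) and 317 of the lower genes (2.57%). A stricter class holds the 708 genes (5.75%) whose call stood in each of the 6 fits that left out 1 library, 339 higher (2.75%) and 369 lower (3.00%), and these genes are described below as holding with every library left out. The split between the directions moved with the libraries in the fit and with the scaling. A fit to the 6 libraries alone gave 959 higher and 1003 lower genes. RLE factors gave 1090 higher and 1110 lower genes, and scaling by library totals alone gave 1236 higher and 405 lower genes and moved the median over all genes, on the log2 scale, from 0.10 to 0.24.

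Genes that fell were shorter and more abundant than genes that rose. The median transcript of the genes that fell had 2360 bases and that of the genes that rose 3978 bases, against 3346 bases over all tested genes. Among the shortest quintile of transcripts 4.98% of genes rose and 15.6% fell, and among the longest quintile 12% rose and 3.82% fell. GC content showed a like slope, with 5.57% higher and 11.2% lower in the quintile of lowest GC and 14% and 3.61% in that of highest GC. Among the most abundant quintile of genes 6.25% rose and 13.9% fell. Across genes, a library's deviations correlated with log2 transcript length at 0.39, 0.05 and 0.02 in aged replicates 1, 2 and 3. In the young libraries the correlations were -0.19 to -0.08. For length the aged libraries were thus all positive and the young all negative, with aged replicate 1 far above aged replicates 2 and 3. With GC content the correlations were -0.14, 0.26 and 0.37 in aged replicates 1, 2 and 3. In young replicates 1, 2 and 3 they were -0.11, 0.10 and -0.26, so for GC content both groups held both signs. These correlations are over 12034 genes, which are not independent replicates. A fit that removed each library's trends with length and GC content called 863 genes higher and 1009 lower. It kept 1414 (64.6%) of the calls. In all 663 genes (5.38%) passed both that fit and every fit with a library left out, 325 higher (2.64%) and 338 lower (2.74%). Counts of gene families are given below with the corrected count beside them, and with the count under another scaling where that turns the direction. They stand against 9.71% higher and 8.06% lower over all genes, and against 863 and 1009 of 12315 after correction. No difference of a family from all genes was tested.

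**Figure D1:**
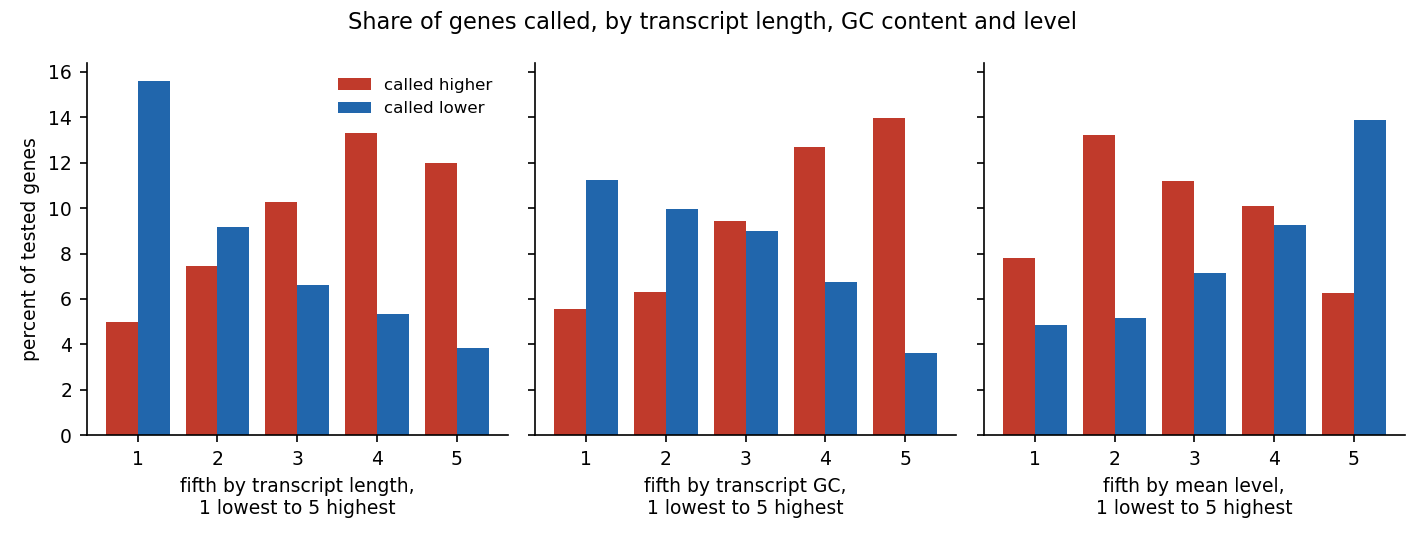
Share of tested genes called higher (red) or lower (blue) in aged oocytes, in percent, by quintiles of transcript length, of transcript GC content and of mean level over the 6 libraries. The share called lower falls from 15.6% in the shortest to 3.82% in the longest quintile, and the share called higher runs from 5.57% to 14% over the quintiles of GC content.

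The largest increases were ranked among genes with at least 5 CPM in the aged group that held with every library left out. They took genes from close to 0 in young oocytes to several CPM or more in aged oocytes. Genes below that level, such as Spesp1 (log2 fold change 9.79), were left out of the ranking. So was Il20ra (log2 fold change 12.1, SE 2.55), which did not hold. Slc14a1, which encodes a urea transporter, had 1, 0 and 0 counts in the young libraries and 523, 177 and 177 counts in the aged libraries. Kcng2, which encodes a modulatory potassium channel subunit, stood at 0.0921, 0.108 and 0.0445 CPM in young and at 6.54, 11.4 and 17.3 CPM in aged oocytes (log2 fold change 7.07, SE 0.55). Cyp27a1, the mitochondrial sterol 27-hydroxylase, stood at 0.230, 0.287 and 0.222 CPM in young and 7.04, 6.29 and 5.58 CPM in aged oocytes. In each of these genes the lowest aged library lay far above the highest young library, and all 3 were also called after length and GC correction.

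Several of these genes encode enzymes. Manba, the lysosomal beta-mannosidase, had 0.230, 0.431 and 0.356 CPM in young and 58.0, 72.6 and 62.8 CPM in aged libraries, and Dbt, of the branched-chain keto acid dehydrogenase, had 1.98, 2.26 and 2.62 CPM and 53.7, 66.3 and 64.8 CPM. Scd3, a stearoyl-CoA desaturase, rose from 1.01, 0.646 and 0.40 CPM to 6.87, 6.86 and 9.36 CPM (log2 fold change 3.48, SE 0.34). Prps2, which makes phosphoribosyl pyrophosphate, rose from 0.921, 0.395 and 0.489 CPM to 7.61, 6.44 and 4.11 CPM. Ahcy, the S-adenosylhomocysteine hydrolase, rose by 3.85 (SE 0.35) on the log2 scale, and its value is uncertain because 77.0% of the 50-base windows of its transcript are also found in other genes. The oxygen-binding protein gene Mb went from 0.461, 0.826 and 0.801 CPM to 7.17, 7.39 and 7.93 CPM, and its aged libraries lay close together. The naming rule admits only genes whose groups do not overlap, so the gap itself is no separate result.

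Mef2b, a transcription factor gene, had 0.415, 0.898 and 0.356 CPM in young and 2.87, 6.56 and 8.33 CPM in aged libraries. Gli3, the transcription factor at the end of the Hedgehog pathway, had 1.06, 1.01 and 2.67 CPM and 23, 11.8 and 10.7 CPM (log2 fold change 3.27, SE 0.49). Srgn, the proteoglycan serglycin, had 8.85, 2.12 and 1.73 CPM and 63.1, 66.3 and 72.8 CPM, and its highest young library was the one with most blood and immune marker signal, whose part in the value was not tested. Pcp4l1 (3.48, SE 0.46), Lrrc75a (3.35, SE 0.30) and Mb21d2 (3.28, SE 0.21) complete the 15 genes with the largest increases by the naming rule.

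**Figure D2:**
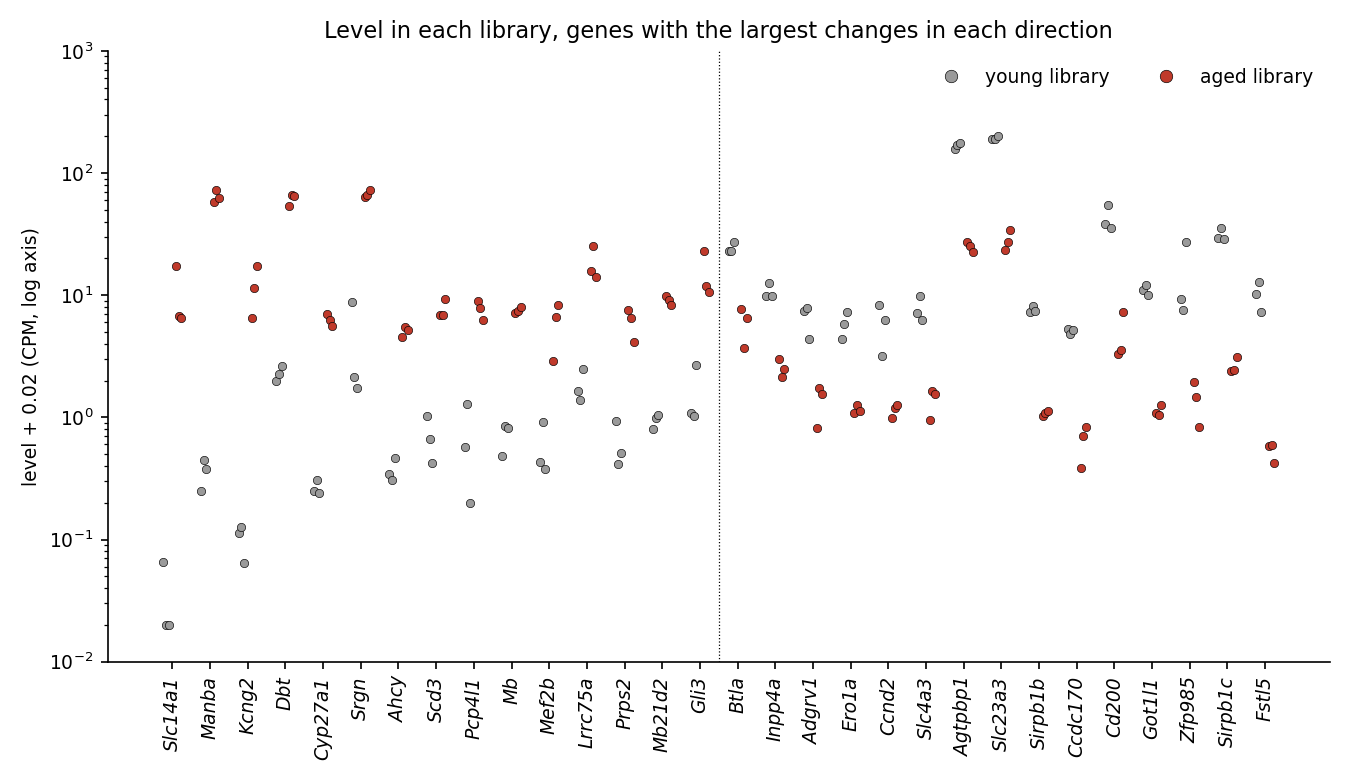
Level in CPM plus 0.02 on a log axis in each young library (grey) and each aged library (red), for the 15 genes with the largest increases and the 15 with the largest decreases with 5 CPM or more in the group where they are higher, all of which held with every library left out. Slc14a1 had 0 counts in young replicates 2 and 3, and in none of the 30 genes do the groups overlap, as the rule requires.

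The 15 genes with the largest decreases by the naming rule all kept some counts in every aged library. Fstl5, a secreted follistatin-like protein gene, fell from 10.1, 12.7 and 7.29 CPM to 0.567, 0.569 and 0.404 CPM (log2 fold change -4.28, SE 0.67). Got1l1, related to cytosolic aspartate aminotransferase, fell from 11, 12.1 and 10.01 CPM to 1.07, 1.02 and 1.25 CPM, and Ccdc170 from 5.25, 4.78 and 5.2 CPM to 0.367, 0.682 and 0.807 CPM. Got1l1 was even within each group, while Ccdc170 was even among the young libraries only. Agtpbp1, which encodes a tubulin deglutamylase, went from 157, 168 and 174 CPM to 27.3, 25.2 and 22.4 CPM, with an SE of only 0.16 on a log2 fold change of -2.74.

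Cell cycle, redox and lipid signalling genes were also in this group. Ccnd2, the cyclin D2 gene, fell from 8.29, 3.16 and 6.23 CPM to 0.968, 1.17 and 1.25 CPM. Ero1a, the oxidase that drives disulphide formation in the endoplasmic reticulum, fell from 4.38, 5.82 and 7.25 CPM to 1.07, 1.25 and 1.10 CPM, and Inpp4a, an inositol polyphosphate phosphatase gene, from 9.91, 12.6 and 9.87 CPM to 2.97, 2.12 and 2.46 CPM. All 3 were called after length and GC correction.

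**Figure D3:**
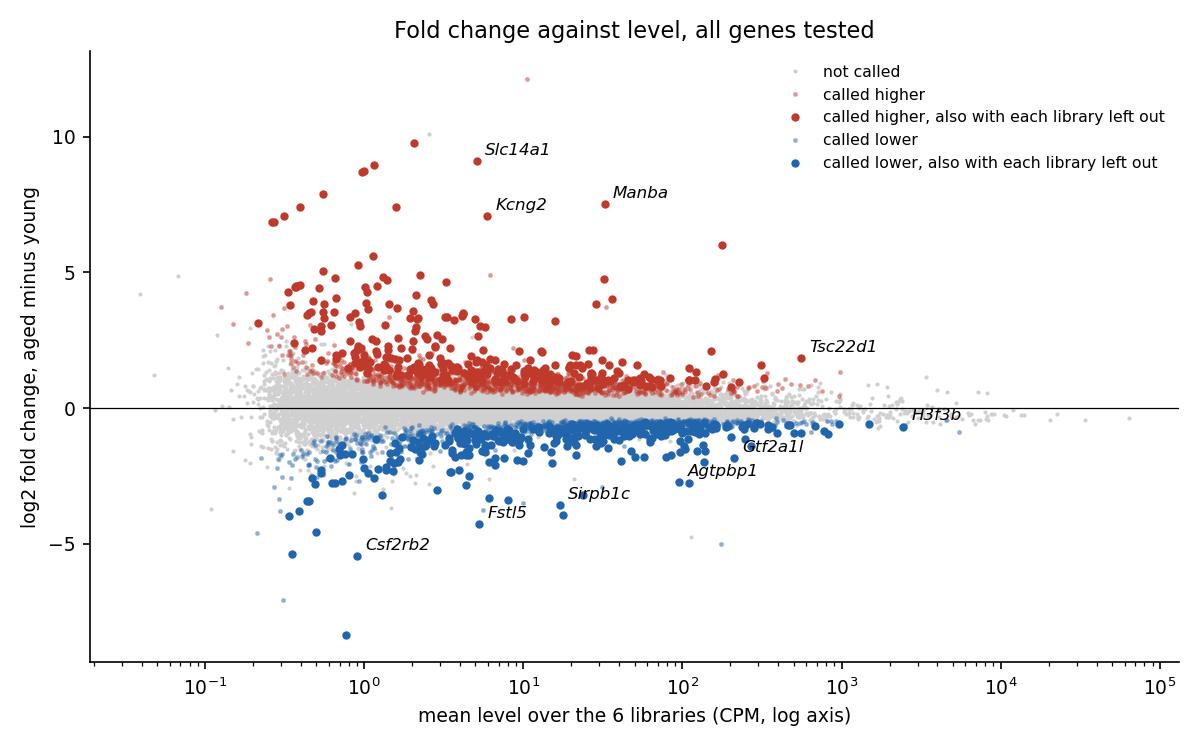
Log2 fold change, aged minus young, against the mean level over the 6 libraries (CPM, log axis) for all genes tested. Large dots are genes called with every library left out, 339 higher (red) and 369 lower (blue), small coloured dots are the other called genes and grey dots the genes not called, and most of the largest increases lie at low levels.

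At high levels changes were smaller and, in the uncorrected fit, more often downward. At a mean of 200 CPM or more, 631 genes were tested, predicted genes included. With predicted genes left out of the counts, 32 rose and 68 fell. Of all 12315 genes 1196 (9.71%) rose and 993 (8.06%) fell. The split at this level was not counted after correction or under another scaling. Gtf2a1l, a germ cell form of the general transcription factor TFIIA, fell from 327, 369 and 298 CPM to 84.6, 104 and 88.6 CPM, and Nsmce1, a subunit of the Smc5/6 DNA repair complex, from 391, 392 and 383 CPM to 140, 149 and 154 CPM (log2 fold change -1.4, SE 0.12). Mipep, a peptidase that trims proteins imported into mitochondria, fell from 342, 329 and 343 CPM to 141, 149 and 169 CPM. The young libraries of Nsmce1 and Mipep differed among themselves by a few percent only. The aged libraries of all 3 genes lay below every young library, which selection by size of change among called genes makes likely. Tesc (-1.07, SE 0.19), a calcium-binding protein gene, and Nae1 (-0.92, SE 0.14), a subunit of the enzyme that activates the ubiquitin-like protein Nedd8, fell as well.

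Abundant genes that rose were led by Tsc22d1, which encodes a leucine zipper protein of the TSC22 family and had 237, 162 and 337 CPM in young and 763, 967 and 881 CPM in aged libraries (log2 fold change 1.83, SE 0.27). Mtfr2, a regulator of mitochondrial fission, rose from 127, 142 and 199 CPM to 396, 552 and 452 CPM. Slc45a3, a solute carrier gene, rose from 204, 219 and 202 CPM to 346, 529 and 463 CPM. These 3 held with every library left out. The other 5 of the 8 abundant genes with the largest increases did not. Among them, Pabpn1l, which encodes a poly(A)-binding protein of oocytes and embryos, had 498, 873 and 314 CPM in young libraries and 783, 1731 and 1702 CPM in aged libraries, so the groups overlapped. Nlrp5, of the subcortical maternal complex, had 472, 381 and 484 CPM and 939, 1025 and 762 CPM and was lost as a call in 5 of those 6 fits. Ddx3x stood at 436 CPM in aged replicate 1 against 202 and 203 CPM in the other aged libraries, and its call was lost in 4 of the 6.

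Genes of secreted proteins changed in both directions. The share that rose was close to the 9.71% over all genes. The share that fell lay above the 8.06% over all genes, a difference that was not tested. Of 845 tested genes annotated to the extracellular region or space, 83 rose (9.82%) and 96 fell (11.4%), with 72 and 90 after correction and 90 and 48 with scaling by totals. Among 16 tested ligands and antagonists of the transforming growth factor beta family, the family of Gdf9 and Bmp15 through which the oocyte signals to its follicle, 4 rose and 1 fell, and 2 rose and 1 fell after correction. Chrdl1, a chordin-like antagonist of bone morphogenetic proteins, rose from 0.461, 0.862 and 0.489 CPM to 4.24, 3.52 and 2.50 CPM. The ligand gene Bmp7 rose from 0.230, 0.395 and 0.356 CPM to 1.37, 1.21 and 1.83 CPM. Fstl5, described above, was the 1 that fell, and Fstl4 (0.89, SE 0.22) lost its call after correction.

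Among 50 growth factor, cytokine and chemokine genes 4 rose and 5 fell, 3 and 5 after correction and 3 and 2 with scaling by totals. Angptl2, a secreted angiopoietin-like protein gene, rose from 17.8, 22.1 and 18.9 CPM to 55, 70.6 and 64.5 CPM. Igfbp7, an insulin-like growth factor binding protein gene, fell from 23.6, 19.9 and 24.2 CPM to 7.27, 7.43 and 7.34 CPM (log2 fold change -1.62, SE 0.15). Both held with every library left out and in both the groups were far apart. The chemokine gene Ccl2 fell from 11.8, 30.8 and 12.4 CPM to 1.00, 1.55 and 2.28 CPM, and its call was lost without aged replicate 1. Its highest library, young replicate 2, had a blood and immune marker sum of 1.36 CPM, and the part of such cells in the result was not tested. Il22 (1.16, SE 0.29) lost its call in 4 of the 6 fits with a library left out and shares 41.0% of its windows with its copy Iltifb.

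Matrix and protease genes followed no common direction. Of 40 extracellular matrix genes 5 rose and 1 fell, but 3 rose and 4 fell after correction. Fbln5, an elastic fibre protein gene, rose from 0.323, 0.180 and 0.445 CPM to 1.43, 1.44 and 1.69 CPM, and of the genes named it and Srgn held with every library left out, while Col4a3 (1.25, SE 0.30) and Col6a5 (1.27, SE 0.30) did not. Of 22 metalloprotease genes 3 rose and 2 fell, but 1 rose and 3 fell after correction. Mmp24 rose by 2.01 (SE 0.37) and Adamts19 fell by 1.3 on the log2 scale (SE 0.24), and both held. Of 19 serpin, cystatin and fetuin genes 3 rose and 3 fell (4 and 2 after correction). Fetub, the fetuin that keeps the egg coat from hardening too early, fell from 89.0, 91.2 and 77.7 CPM to 34.4, 41.6 and 41.5 CPM and was the 1 gene of the 6 that held with every library left out. Serpine2, an inhibitor of serine proteases, had 310, 378 and 321 CPM in young and 451, 748 and 682 CPM in aged libraries and lost its call in 4 of the 6.

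Receptors and adhesion proteins of the immunoglobulin superfamily bind ligands or other cells at the surface. Of 33 tested members 3 rose (9.09%) and 7 fell (21.2%), and 1 rose and 8 fell after correction, and scaling by totals left 3 higher and 5 lower. The difference from the shares over all genes was not tested. The median log2 fold change of the 33 was -0.13 against 0.10 over all genes. Of the 7 that fell 5 held with every library left out. Sirpb1c and Sirpb1b belong to the signal regulatory proteins, paired receptors found mostly on myeloid cells. Sirpb1c fell from 29.5, 35.5 and 29 CPM to 2.37, 2.43 and 3.12 CPM, and Sirpb1b from 7.33, 8.19 and 7.34 CPM to 1.00, 1.06 and 1.10 CPM. Levels were steady within each group for both genes. The blood and immune marker sum was 36.9, 1.36 and 17.4 CPM in the same young libraries, and the part of such cells in the result was not tested. The third gene of the set, Sirpb1a, had 4.09 CPM ± 0.511 (SD, n = 3) in young and 2.63 CPM ± 0.348 (SD, n = 3) in aged oocytes and was not called (log2 fold change -0.64, SE 0.37, edgeR adjusted p = 0.241). Sirpb1b and Sirpb1c share 54.1% and 57.6% of their 50-base windows with other genes, each mostly with the other, and Sirpb1a shares 31.9%, so how reads were split between the 3 is uncertain. The tested gene next to Sirpb1c on the chromosome, the predicted gene Gm5150, went the other way (log2 fold change 5.59) and held with every library left out. It was named after its value was seen, and its shared windows were not counted.

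The promoters of the 3 Sirpb1 genes are shown because the genes lie in a row on chromosome 3 and their transcripts share sequence. They are from RefSeq, build GRCm38.p6, on the minus strand, and each window runs from 250 bases before to 50 bases after the start of the gene, at chr3:15426378-15426677 for Sirpb1a, chr3:15575016-15575315 for Sirpb1b and chr3:15848438-15848737 for Sirpb1c. Capitals mark bases that differ from Sirpb1c where the windows are laid over each other without gaps.
Sirpb1a: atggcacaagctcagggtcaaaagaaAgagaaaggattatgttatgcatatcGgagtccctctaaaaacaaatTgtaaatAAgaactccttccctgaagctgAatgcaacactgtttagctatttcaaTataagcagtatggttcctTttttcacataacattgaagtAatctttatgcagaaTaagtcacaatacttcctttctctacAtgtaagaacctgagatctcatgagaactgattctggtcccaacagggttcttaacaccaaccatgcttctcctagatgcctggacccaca
Sirpb1b: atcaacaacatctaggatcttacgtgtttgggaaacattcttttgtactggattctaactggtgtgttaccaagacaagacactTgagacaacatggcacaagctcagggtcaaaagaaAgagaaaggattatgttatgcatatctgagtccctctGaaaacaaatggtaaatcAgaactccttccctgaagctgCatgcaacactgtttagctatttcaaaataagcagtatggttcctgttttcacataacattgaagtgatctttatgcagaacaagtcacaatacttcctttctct
Sirpb1c: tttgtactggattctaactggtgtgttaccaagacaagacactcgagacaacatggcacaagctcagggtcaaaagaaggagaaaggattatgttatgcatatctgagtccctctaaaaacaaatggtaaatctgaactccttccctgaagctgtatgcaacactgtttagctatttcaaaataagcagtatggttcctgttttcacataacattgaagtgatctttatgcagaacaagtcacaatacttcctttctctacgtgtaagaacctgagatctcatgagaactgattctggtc
The window of Sirpb1b matched that of Sirpb1c at 254 of 259 bases (98.1%) when shifted by 41 bases, and the window of Sirpb1a matched it at 237 of 248 bases (95.6%) when shifted by 52 bases. The 2 genes that fell and the 1 that was not called thus have nearly the same sequence upstream of their starts, with annotated starts at different places in it.

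Other members of the superfamily that fell encode guidance and co-inhibitory receptors. Btla, an inhibitory receptor of lymphocytes, fell from 22.9, 22.9 and 27 CPM to 7.64, 3.68 and 6.46 CPM. Cd200, a surface glycoprotein that restrains myeloid cells, fell from 38.2, 54.6 and 35.6 CPM to 3.30, 3.52 and 7.27 CPM. These genes are neighbours in the genome. Robo2, a receptor for Slit guidance proteins, fell from 3.59, 3.70 and 2.89 CPM to 1.13, 1.63 and 0.991 CPM, and Chl1, an adhesion molecule gene named after its values were seen, from 5.99, 7.29 and 7.87 CPM to 2.77, 1.4 and 2.13 CPM. Among 42 CD antigen genes 4 rose and 3 fell (6 and 4 after correction), and the increases included Cd200r3, of the Cd200 receptor family, from 0.138, 0.0359 and 0.222 CPM to 2.80, 1.71 and 1.28 CPM. Cd69 fell from 16.2, 14.9 and 9.34 CPM to 5.84, 5.08 and 4.70 CPM.

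Cadherins and cytokine receptors also split. Cdh13, a cadherin anchored to the membrane by a lipid, fell from 2.07, 3.38 and 1.56 CPM to 0.167, 0.227 and 0.367 CPM, and Cdh19 fell by 2.40 (SE 0.42), while Cdh20 rose by 2.20 (SE 0.42) and Cdh3 by 1.23 (SE 0.24), all 4 holding with every library left out. Of 28 cadherins and related genes 3 rose and 3 fell (2 and 3 after correction). Csf2rb2, the beta subunit of the mouse interleukin 3 receptor, fell from 1.89, 1.97 and 1.47 CPM to 0.0667, 0.0379 and 0 CPM (log2 fold change -5.46, SE 0.56). It shares 19.4% of its windows with its paralog Csf2rb. Of 44 serine-threonine kinase, cytokine and death receptor genes 3 rose and 4 fell (2 and 4 after correction). Among them were Tgfbr3, the betaglycan co-receptor of inhibin, higher by 1.3 (SE 0.21), and Ccr3, a chemokine receptor gene, lower by 1.18 on the log2 scale (SE 0.21). Il20ra had 0 counts in every young library and 463, 596 and 695 counts in the aged libraries. Its call held in only 1 of the 6 fits with a library left out. Egfr, the receptor for follicular growth factors, fell from 81.3, 92.1 and 99.0 CPM to 53.5, 48.5 and 50.2 CPM.

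G protein-coupled receptors, ion channels and solute carriers rose more often than they fell in the uncorrected fit, but not after correction. The counts were 10 higher and 3 lower of 58 receptors (6 and 8 corrected), 15 and 7 of 97 channels (8 and 12), and 28 and 15 of 200 carriers (17 and 17). Genes annotated to the plasma membrane behaved likewise, with 282 higher and 162 lower of 2340, and 168 and 223 after correction. All genes tested turned the same way, from 1196 higher and 993 lower to 863 and 1009. Among adhesion receptors, Adgrg5 rose from 1.43, 1.15 and 1.25 CPM to 3.74, 3.87 and 4.00 CPM and its neighbour Adgrg1 from 12.9, 15.1 and 12.4 CPM to 28.6, 25.6 and 25.6 CPM. Adgrv1 fell from 7.46, 7.83 and 4.36 CPM to 0.801, 1.71 and 1.54 CPM and Adgrg4 fell by 1.4 on the log2 scale (SE 0.28). These 4 were called under the correction and with every library left out, so members of 1 receptor class moved in opposite directions.

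Among channels, Trpv2, a cation channel gene, rose from 2.03, 3.55 and 2.58 CPM to 8.61, 11.5 and 8.99 CPM, and Cnga4, a cyclic nucleotide-gated channel subunit, rose by 1.27 (SE 0.19). Gabrr3, a GABA receptor subunit gene, fell from 26.2, 32.0 and 31.1 CPM to 14.6, 13.6 and 15.5 CPM. Slc5a8, a sodium-coupled monocarboxylate transporter gene, rose from 0.0921, 0.0359 and 0.0889 CPM to 1.20, 1.48 and 1.06 CPM. Slc23a3, of the nucleobase and ascorbate transporter family, fell from 189, 188 and 201 CPM to 23.5, 27.4 and 33.9 CPM, Slc9b1, a sodium-proton exchanger, from 159, 120 and 161 CPM to 45.2, 45.5 and 51.4 CPM, and Slc4a3, an anion exchanger, from 7.10, 9.84 and 6.23 CPM to 0.934, 1.63 and 1.54 CPM. Abcb1b, a multidrug efflux pump gene, fell from 89.3, 96.3 and 97.4 CPM to 48.8, 53.8 and 58.3 CPM, with 18.3% of its windows found in other genes. Aged libraries lay on 1 side of all young libraries in each of these genes, as in 40.0% of all genes tested. The genes were picked for a small p or a large change, so this is no separate result.

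Transcription factor genes rose far more often than they fell. Of 536 genes annotated with DNA-binding transcription factor activity, 72 rose (13.4%) and 12 fell (2.24%), with a median log2 fold change of 0.29. Over all genes 9.71% rose and 8.06% fell, and the difference was not tested. In this class the correction brought the counts to 46 and 25 and the median to 0.12, against a median of 0.01 over all genes. With a library left out the counts lay between 23 and 57 higher and between 3 and 15 lower. With every library left out 20 higher and 3 lower genes held. The median transcript of the class had 3995 bases, longer than that of all genes.

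**Figure D4:**
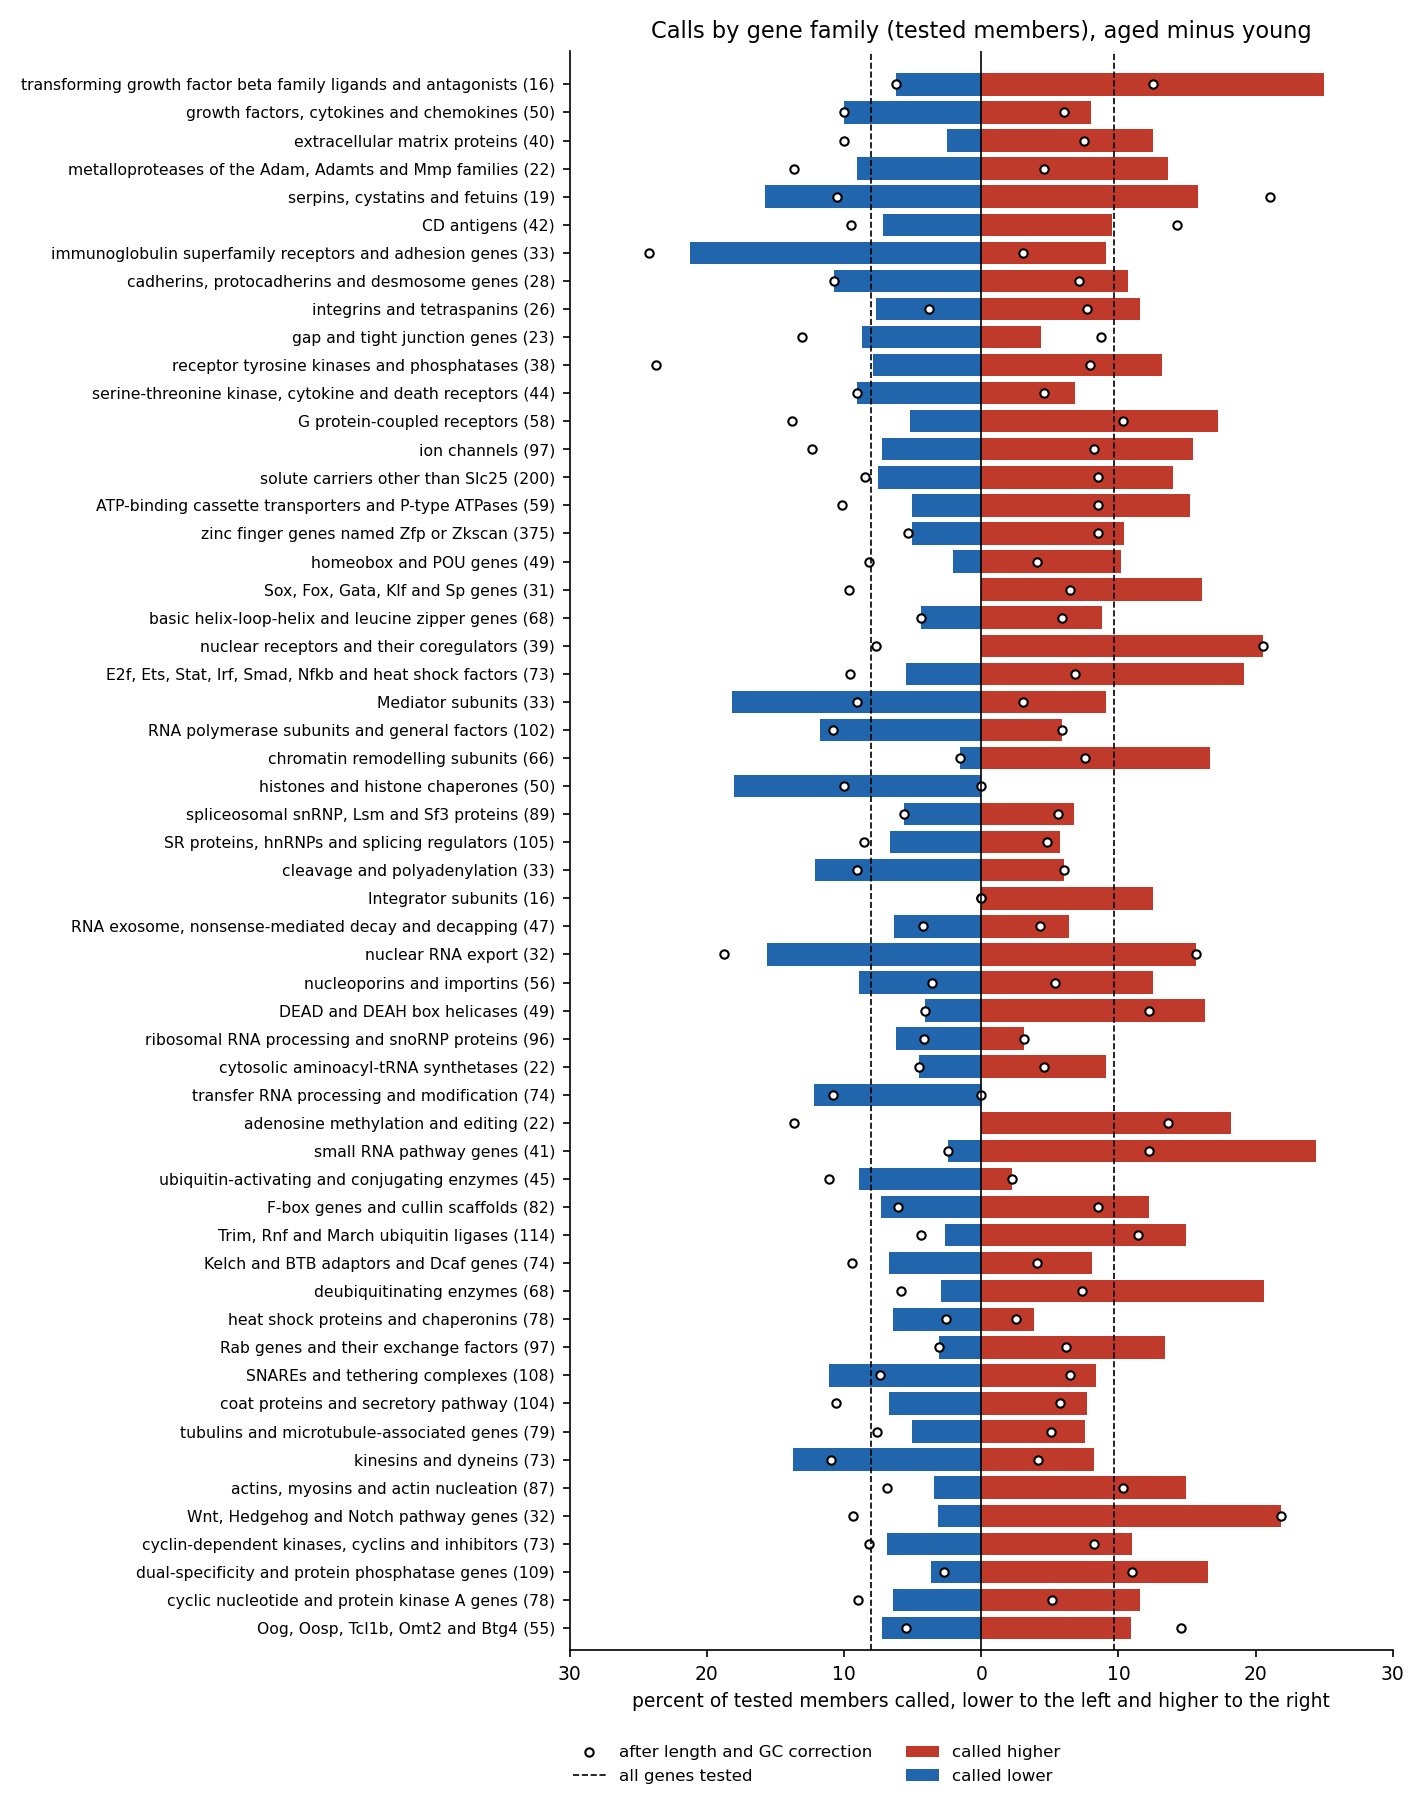
Percent of the tested members of each gene family called higher (red, to the right) or lower (blue, to the left) in aged oocytes, with the number of tested members in parentheses. Open circles give the same shares after length and GC correction. Dashed lines mark the uncorrected shares over all genes tested, 9.71% higher and 8.06% lower. Nuclear receptors and the Wnt, Hedgehog and Notch genes kept their share of increases after correction, and histones and transfer RNA processing genes have bars to the left only.

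Nuclear receptors and their coregulators carried 8 increases and 0 decreases among 39 tested genes in the uncorrected fit, and 8 and 3 after correction. In the uncorrected fit 20.5% were thus higher, against 9.71% over all genes, a difference that was not tested. The 0 is from edgeR, with 2 lower at an unadjusted p under 0.05 and 0 lower by DESeq2. Rara, the retinoic acid receptor alpha gene, rose from 0.461, 0.323 and 0.534 CPM to 1.17, 1.59 and 1.87 CPM. Nr2c1, an orphan receptor gene, rose from 4.88, 4.49 and 5.25 CPM to 9.54, 9.78 and 8.73 CPM, and Ncoa4, a coactivator that also carries ferritin to the lysosome, from 110, 102 and 114 CPM to 215, 221 and 191 CPM. These 3 held with every library left out. Esr1, the oestrogen receptor alpha gene, had 4.88, 4.78 and 6.67 CPM and 13.2, 9.36 and 8.66 CPM and lost its call without young replicate 1.

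Other families of transcription factors gave less even counts. Of 73 E2f, Ets, Stat, Irf, Smad, Nfkb and heat shock factor genes 14 rose and 4 fell, but 5 rose and 7 fell after correction. E2f1, a driver of entry into the cell cycle, rose from 3.41, 3.02 and 3.20 CPM to 5.44, 5.99 and 7.49 CPM and was not called after correction. Nfatc1, a factor activated by calcium and calcineurin, rose from 0.737, 0.898 and 0.756 CPM to 3.97, 2.01 and 2.72 CPM. Nfyb, a subunit of the CCAAT-binding factor, fell from 24, 21.9 and 27 CPM to 12.7, 12.4 and 14 CPM. Of 31 Sox, Fox, Gata, Klf and Sp genes 5 rose and 0 fell by edgeR (3 lower at an unadjusted p under 0.05, 2 lower by DESeq2), turning to 2 and 3 after correction, and of 49 homeobox and POU genes 5 rose and 1 fell, turning to 2 and 4. Otx1, a homeobox gene of which the levels were 3.13, 2.3 and 2.27 CPM in young and 7.57, 8.26 and 9.21 CPM in aged oocytes, and Foxj2 (1.53, SE 0.29) passed both the correction and every fit with a library left out. Among 68 basic helix-loop-helix and leucine zipper genes, of which 6 rose and 3 fell (4 and 3 after correction), the circadian regulators Arntl (0.77, SE 0.16) and Bhlhe41 (0.94, SE 0.19) rose and Tfec (-1.68, SE 0.33) fell, and Figla, a regulator of egg coat genes named after its values were seen, fell from 24.7, 22.0 and 27.5 CPM to 15.7, 18.7 and 15.9 CPM. The calls of Arntl and Bhlhe41 were lost without young replicate 1. That of Figla was lost in 3 of the 6 fits with a library left out, with scaling by totals and after correction.

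Zinc finger genes named Zfp, Zbtb, Zscan or Zkscan had 39 increases and 19 decreases among 375 tested (32 and 20 after correction). Zfp973 rose from 0.0461, 0 and 0.0445 CPM to 1.13, 1.06 and 1.03 CPM, but 88.4% of its windows are found in other genes. Zfp979 rose from 12.4, 11.2 and 13.9 CPM to 40.7, 46.6 and 28.8 CPM, and Zfp985 fell from 9.35, 7.5 and 27.1 CPM to 1.94, 1.44 and 0.807 CPM. Zfp961 rose from 11.1, 9.44 and 13.7 CPM to 33.3, 35.4 and 33.1 CPM. The genes numbered close to Zfp979 and Zfp985 are close copies, and they did not move as a block. Zfp987 (1.29, SE 0.26) and Zfp978 (1.24, SE 0.28) rose, and Zfp984 (-1.46, SE 0.22), Zfp990 (-1.57, SE 0.28) and Zfp992 (-1.13, SE 0.23) fell, all 5 named after their values were seen. Zfp979, Zfp985, Zfp990, Zfp992, Zfp984 and Zfp987 share 24.6%, 16.2%, 26%, 43%, 54.6% and 92.1% of their windows with other genes, so reads could be exchanged between copies.

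The machinery that carries out transcription showed changes in both directions. Of 33 Mediator subunits, the complex that links activators to RNA polymerase II, 3 rose and 6 fell. Med12 (1.03, SE 0.27) and Med15 (0.94, SE 0.21) rose, and Med7, from 348, 277 and 364 CPM to 211, 224 and 219 CPM, and Med30 (-0.60, SE 0.15) fell. The median transcript was 3693 bases for the 3 that rose and 1221 bases for the 6 that fell, 0 of the 9 calls held with every library left out, 1 rose and 3 fell after correction, and scaling by totals gave 3 higher and 2 lower. Of 102 RNA polymerase subunits and general factors 6 rose and 12 fell (6 and 11 after correction, 8 and 5 with scaling by totals). Polr3k, a subunit of RNA polymerase III, fell from 289, 173 and 163 CPM to 83.4, 52.9 and 72.9 CPM, while Brf2, an initiation factor of the same polymerase, rose from 20.2, 23.2 and 18.6 CPM to 35.9, 49.2 and 42.2 CPM. Gtf3c2, of the complex that recruits polymerase III to transfer RNA genes, rose by 1.04 (SE 0.16), with 52.7% of its windows shared with another annotated gene.

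Remodelling complexes move nucleosomes, which are built of histones. Of 66 remodelling genes 11 rose (16.7%) and 1 fell (1.52%), against 9.71% and 8.06% over all genes, a difference that was not tested. After correction 5 rose and 1 fell, and most of the 66 were not called in either fit. Chd2, an ATP-dependent remodeller gene, rose from 0.829, 0.826 and 0.667 CPM to 5.51, 3.03 and 6.38 CPM. Ep400, of the Tip60 complex, rose from 37.9, 41.2 and 42.3 CPM to 109, 75.6 and 72.4 CPM, and Arid3b rose by 1.07 (SE 0.22). Of 50 histone and histone chaperone genes 0 rose and 9 fell (18%), and 5 fell both with scaling by totals and after correction. The 0 is from edgeR, 2 of the 50 were higher at an unadjusted p under 0.05, DESeq2 called 1 higher, and at most 1 was called higher in any setting tried. H3f3b, which encodes the replacement histone H3.3, fell from 3021, 3081 and 2911 CPM to 1624, 2109 and 1887 CPM, H2bc4 from 115, 103 and 93.8 CPM to 46.4, 76.0 and 50.3 CPM, and H4c4 from 2.76, 2.3 and 2.49 CPM to 0.434, 0.644 and 0.440 CPM. All 3 held with every library left out, H2bc4 was not called after correction, and H2bc4 and H4c4 share 30.1% and 10.2% of their windows with other histone genes. Most replication-dependent histone messages end in a stem loop without a poly(A) tail, so an oligo dT library reads only the part of them that carries one. H2aw (-1.34, SE 0.33) also fell, but its call held in only 3 of the 6 fits with a library left out. It overlaps Trim17, from which it cannot be told apart without strand. Trim17 (-1.63, SE 0.27) fell and held and is counted with the Trim genes, so the same reads may enter both counts.

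Counts for RNA processing depended on the family and on the scaling. Of 789 genes annotated with RNA binding 63 rose and 57 fell, but 47 rose and 55 fell after correction, 60 and 68 with RLE factors and 60 and 20 with scaling by totals. Of 341 with messenger RNA processing or splicing 19 rose and 24 fell, 12.6% in all against 17.8% over all genes. After correction 13 of the 341 were higher and 23 lower, and with scaling by totals 21 and 4. Of 89 spliceosomal genes 6 rose and 5 fell (5 and 5 after correction, 5 and 10 with RLE factors). Zrsr1, a retrotransposed copy related to the U2 auxiliary factor, rose from 0.415, 0.395 and 0.40 CPM to 1.60, 1.74 and 1.43 CPM, and Bcas2, a subunit of the Prp19 complex, fell from 33.3, 29.7 and 30.3 CPM to 17.5, 19.3 and 19.2 CPM. Of 105 SR, hnRNP and regulator genes 6 rose and 7 fell (5 and 9 after correction, 7 and 2 with scaling by totals). Ptbp1, the polypyrimidine tract binding repressor of splicing, rose from 11.2, 17.7 and 13.9 CPM to 48.7, 50.8 and 45.8 CPM (log2 fold change 1.76, SE 0.19), while Hnrnpc fell from 460, 414 and 471 CPM to 251, 312 and 273 CPM and Srsf10 from 53.4, 49.9 and 63.4 CPM to 37.4, 34.1 and 31.9 CPM. These 3 passed the correction and every fit with a library left out, and Srsf10, like Bcas2 above, was not called with scaling by totals.

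Polyadenylation and export follow splicing. Pabpn1, the nuclear poly(A)-binding protein of somatic cells, fell from 0.829, 1.33 and 1.11 CPM to 0, 0.227 and 0.257 CPM, with 27.4% of its windows shared, and its oocyte relative Pabpn1l rose without holding, as given above. Of 33 cleavage and polyadenylation genes 2 rose and 4 fell (2 and 3 after correction, 3 and 1 with scaling by totals). Of 32 nuclear export genes 5 rose and 5 fell, 5 and 6 after correction and 4 and 2 with scaling by totals. Ddx19a and Ddx19b, adjacent copies of a helicase that frees messenger RNA at the nuclear pore, rose from 14.4, 16 and 11.7 CPM to 32.8, 26.8 and 33.4 CPM and from 4.75, 5.31 and 4.58 CPM to 12.8, 9.70 and 10.4 CPM. They share 33.3% and 12.7% of their windows with other genes. Sarnp (-0.85, SE 0.17), of the TREX export complex, fell, with 42.0% of its windows found in other genes. Among 56 nucleoporins and importins 7 rose and 5 fell, the 7 with a median transcript of 5580 bases and the 5 with 1735 bases, and after correction 3 rose and 2 fell. Tnpo2 (1.36, SE 0.21) and Nupl2 (1.64, SE 0.32) were the pair that held.

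Small RNA pathway genes rose more often than they fell. Of 41 tested genes 10 rose (24.4%) and 1 fell (2.44%), against 9.71% and 8.06% over all genes, a difference that was not tested. After correction 5 rose and 1 fell, 4 and 1 of which also held with every library left out. Ddx4, the germ cell helicase, rose from 26.5, 20.2 and 31.7 CPM to 74.5, 100 and 58.2 CPM. Tdrd9, a Tudor-domain helicase of the piRNA pathway, rose from 3.96, 5.03 and 5.65 CPM to 10.5, 11.4 and 7.96 CPM, and Xpo5, which exports microRNA precursors, from 8.34, 7.68 and 8.76 CPM to 24.3, 13.3 and 15.4 CPM. Piwil2 (1.65, SE 0.34), a PIWI protein gene, and Mov10 (1.21, SE 0.25), an RNA helicase gene, rose too and were named after their values were seen, and Mov10 was not called after correction. Gtsf1, a partner of PIWI proteins and the 1 member that fell, went the other way at a high level, from 1121, 879 and 1278 CPM to 618, 521 and 531 CPM. DEAD and DEAH box helicases, a list that shares Ddx4 with this one, had 8 increases and 2 decreases among 49 genes (6 and 2 after correction).

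Transfer RNAs and ribosomal RNAs are cut and modified by their own sets of enzymes. Of 74 genes of transfer RNA processing and modification 0 rose and 9 fell (12.2%), 0 and 8 after correction and 0 and 2 with scaling by totals. The 0 is from edgeR, with 3 higher at an unadjusted p under 0.05 and 0 higher by DESeq2, and 3 were called higher without aged replicate 1. Pop4, a subunit of RNase P, fell from 76.0, 65.3 and 68.7 CPM to 38.4, 34.6 and 45.1 CPM, and Elp6, of the Elongator complex, from 3.41, 4.20 and 2.76 CPM to 1.10, 1.55 and 1.87 CPM. These were the 2 that held with every library left out. Of 96 ribosomal RNA processing genes 3 rose and 6 fell, 9.38% in all, with 3 and 4 after correction and 5 and 3 with scaling by totals. The 6.25% that fell lie below the 8.06% over all genes. Utp23 fell from 90.5, 91.7 and 86.4 CPM to 22.3, 30.2 and 23.8 CPM, Rpf1 from 110, 90.3 and 115 CPM to 53.0, 65.6 and 66.6 CPM, and the methyltransferase gene Emg1 from 383, 355 and 362 CPM to 222, 265 and 248 CPM. All 3 encode factors of ribosome assembly in the nucleolus, and all 3 held. Genes annotated to the nucleolus had 41 increases and 67 decreases among 757 (32 and 61 after correction, 48 and 30 with scaling by totals). Among readers of adenosine methylation, Igf2bp2 rose from 50.03, 55.8 and 51.8 CPM to 110, 85.5 and 84.4 CPM and Igf2bp3 by 0.85 (SE 0.17), the latter not called without young replicate 1. They belong to a list of 22 with 4 higher and 0 lower by edgeR (3 lower at an unadjusted p under 0.05, 2 lower by DESeq2), which became 3 and 3 after correction.

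Ubiquitin ligases of the Trim, Rnf and March families had 17 increases (14.9%) and 3 decreases (2.63%) among 114 genes (13 and 5 after correction). Deubiquitinating enzymes had 14 (20.6%) and 2 (2.94%) among 68 (5 and 4 after correction), and 0 of these 16 calls held with every library left out. Over all genes 9.71% rose and 8.06% fell, and the differences were not tested. Trim30d, of a mouse family of immune-induced ligases, had 4, 0 and 2 counts in young and 69, 48 and 46 counts in aged libraries. Trim21, an antibody receptor in the cytosol, rose from 0.0921, 0.108 and 0 CPM to 0.567, 1.02 and 0.991 CPM, and Trim68 fell from 2.07, 2.76 and 1.96 CPM to 0.234, 0.493 and 0.661 CPM. Uba1, the main ubiquitin-activating enzyme, rose from 44.2, 51.1 and 48.6 CPM to 126, 85.0 and 81.1 CPM. The modifier gene Ufm1 fell from 28.8, 24.7 and 30.5 CPM to 15.2, 16 and 15.8 CPM, and the F-box gene Fbxw13, of an oocyte-rich family, by 0.86 on the log2 scale (SE 0.18). Among the heat shock genes Hspa4 (0.80, SE 0.14) rose and the prefoldin subunit gene Vbp1 (-0.76, SE 0.15) fell, with 3 higher and 5 lower of 78 (2 and 2 after correction, 3 and 2 with scaling by totals).

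Of 108 SNARE and tethering genes 9 rose and 12 fell (7 and 8 after correction, 11 and 5 with scaling by totals). Nsf, the ATPase that recycles SNAREs, rose from 42.7, 42.0 and 51.3 CPM to 115, 90.8 and 75 CPM and the syntaxin gene Stx17 from 18, 15.5 and 21.1 CPM to 36.8, 40.5 and 34.6 CPM. Vamp8 fell from 56.3, 69.0 and 59.8 CPM to 33.1, 22.3 and 36 CPM, and Vamp3, named after its values were seen, from 32.4, 28.5 and 35.3 CPM to 14.9, 20.0 and 15.2 CPM. Within the signal recognition particle Srp54a rose by 1.58 (SE 0.21), with 75.2% of its windows shared with its copies, and Srp14 (-0.75, SE 0.12) and Srp19 (-0.76, SE 0.15) fell, the last 2 named after their values were seen and Srp14 not called after correction. Sar1a, the GTPase of COPII vesicles, fell from 70.4, 66.4 and 79.2 CPM to 35.8, 37.1 and 37.5 CPM and Ap1b1, a clathrin adaptor gene, rose from 9.26, 11.7 and 9.56 CPM to 25.8, 29.5 and 30.5 CPM. Rab genes and their exchange factors had 13 increases (13.4%) and 3 decreases (3.09%) among 97 (6 and 3 after correction). Over all genes 9.71% rose and 8.06% fell, and the difference was not tested. These increases were led by Rilpl1, from 4.47, 4.92 and 5.07 CPM to 17.9, 26.6 and 18 CPM.

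Tubulin-modifying enzymes moved both ways. Beside the fall of Agtpbp1, its relative Agbl5, also a deglutamylase, rose from 0.553, 1.18 and 0.489 CPM to 2.00, 2.35 and 2.24 CPM, and Ttll10, a polyglycylase gene, from 0.276, 0.539 and 0.356 CPM to 3.07, 4.85 and 4.04 CPM. The call of Agbl5 was lost without young replicate 1. Kinesin and dynein genes had 6 increases and 10 decreases among 73 (3 and 8 after correction, 8 and 3 with scaling by totals). Dctn3, of dynactin, fell from 49.7, 49.3 and 46.9 CPM to 20.1, 30.4 and 29.1 CPM. The near-identical copies of the dynein light chain gene Dynlt1 moved apart. Dynlt1b fell from 761, 487 and 720 CPM to 376, 357 and 304 CPM and Dynlt1f from 201, 124 and 177 CPM to 87.9, 88.5 and 79.0 CPM, whereas Dynlt1a rose from 9.54, 6.79 and 10.7 CPM to 38.9, 34.1 and 27.9 CPM. Since 83.2%, 75.9% and 88.0% of the windows of Dynlt1b, Dynlt1a and Dynlt1f are found in other genes, the split between them is uncertain, and Dynlt1a and Dynlt1f were named after their values were seen. Actin and myosin genes had 13 increases (14.9%) and 3 decreases (3.45%) among 87 (9 and 6 after correction). Over all genes 9.71% rose and 8.06% fell, and the difference was not tested. Myo5b, a carrier of recycling vesicles, went from 61.2, 80.8 and 71.5 CPM to 173, 141 and 127 CPM.

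Signalling genes of the Wnt, Hedgehog and Notch pathways rose in 7 of 32 cases (21.9%) and fell in 1, and 7 and 3 after correction. Over all genes 9.71% rose and 8.06% fell, and the difference was not tested. Tcf7, the transcription factor at the end of the Wnt pathway, rose from 7.46, 6.97 and 7.16 CPM to 21.8, 19.6 and 18.7 CPM (log2 fold change 1.48, SE 0.17). Wls, which carries Wnt ligands to the surface, rose from 5.94, 7.97 and 8.05 CPM to 22.2, 22.1 and 14 CPM. Sufu, an inhibitor of Gli factors, rose by 1.13 (SE 0.23) together with Gli3. All 4, with Gli3, held with every library left out and after correction. Phosphatase genes had 18 increases (16.5%) and 4 decreases (3.67%) among 109 (12 and 3 after correction), which was likewise not tested against all genes. Ppm1l stood at 0.691, 1.54 and 1.65 CPM in young and 4.67, 4.43 and 4.99 CPM in aged libraries. Among genes of cyclic nucleotide signalling, which keeps the oocyte in meiotic arrest, Pde10a (2.23, SE 0.36) and Adcy1 (1.83, SE 0.32) rose, and Gna14, a G protein alpha subunit gene, fell from 186, 208 and 159 CPM to 63.7, 61.4 and 57.3 CPM. Wee1, a kinase that restrains Cdk1, rose from 3.23, 2.48 and 3.91 CPM to 9.81, 6.86 and 6.97 CPM.

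Gene families of oocytes and early embryos were called about as often as genes at large. Of 55 tested members of the Oog, Oosp, Nlrp, Pramef, Dppa, Tcl1 and related families 6 rose and 4 fell (8 and 3 after correction, 9 and 3 with scaling by totals). Pramef17 rose from 0, 0 and 0.0445 CPM to 2.60, 4.09 and 2.72 CPM, with 73.5% of its windows shared with relatives. Dppa4, a chromatin factor of early embryos, fell from 14.4, 15.4 and 17.6 CPM to 2.87, 5.31 and 4.00 CPM, and the secreted protein gene Oosp2 from 807, 560 and 820 CPM to 446, 360 and 356 CPM. The call of Oosp2 was lost after correction and that of Dppa4 was not, but Dppa4 shares 35.9% of its windows with other genes.

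Neighbouring genes that both changed went the same way more often than neighbours at large. Of 12263 pairs of tested genes next to each other on a chromosome, 52.4% had fold changes of the same sign, of 404 pairs with both genes called 238 did (58.9%), and of 68 pairs with both genes holding with every library left out 42 did (61.8%), 27 higher and 15 lower. Pairs include Btla with Cd200 (-2.03 and -3.19), the butyrophilin-like genes Skint6 with Skint5 (3.49 and 3.56), the interferon-induced membrane protein genes Ifitm3 with Ifitm6 (-0.94 and -0.87), Tfap2c with Bmp7 (1.29 and 2.14), Uba1 with Cdk16 (1.02 and 1.19) and Epg5 with Slc14a1 (1.23 and 9.11), all log2 fold changes. No test of these shares was made, and pairs of close copies such as Sirpb1b with Sirpb1c or Ddx19a with Ddx19b can exchange reads.

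**Figure D5:**
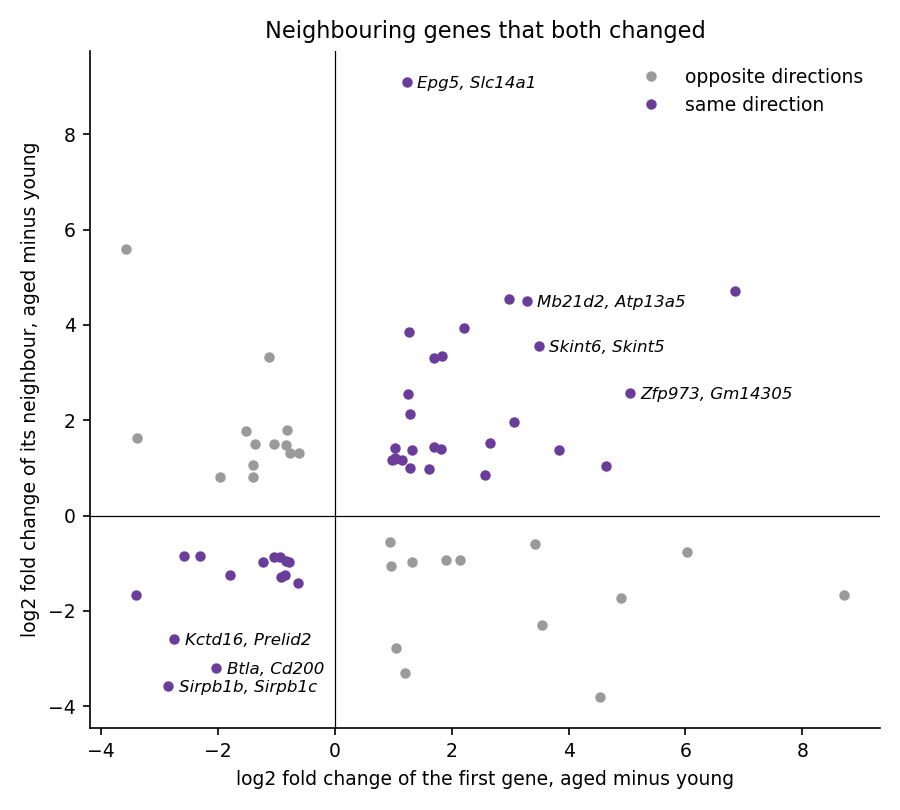
Log2 fold change, aged minus young, of each gene against that of its neighbour on the chromosome, for the 68 pairs of neighbouring genes that both held with every library left out. The 42 pairs that changed in the same direction are purple and lie in the upper right and lower left, and the other pairs are grey.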

How the data were processed

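The authors deposited 1 table holding, for every gene, an expected count for each library, headed as read counts (15.9% to 16.7% of values in a library were not whole). The same deposited table holds log2 values (log2 fold changes) made by the authors before deposit, and p-values and q-values made by the authors, neither of which was used here. Software named in the submitters' processing notes is Bowtie2 (2.3.4.3), RSEM (1.3.1) and DESeq2 (1.4.5), and mm9 is the build, all without role or order. Whether counting used strand is not given in the sources used here. Overlapping genes therefore cannot be told apart.

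Counts were rounded to whole numbers. Genes were filtered by filterByExpr and scaled by TMM in edgeR 4.0.16 (R 4.3.3), and 1 quasi-likelihood model with robust dispersion was fitted to all 10 libraries. The contrast was aged minus young, with Benjamini-Hochberg adjustment over 12315 genes and a threshold of 0.05. The SE is that implied by the F statistic. In simulated data (12118 genes in the fit) the test recovered 37% of genes given a log2 change of 1 and 92% of those given 2, with 12 false among 141 calls. Alternatives included DESeq2 1.42.0 on the deposited counts.

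The comparison and 56 families, matched by symbol, were chosen with earlier results of these data known, and names of unrelated genes were removed after matching. Annotation classes came from the deposited table. Named genes are up to 15 per direction by fold change (at least 5 CPM in the higher group, no overlap, held with every library left out), up to 8 per direction with a mean of at least 200 CPM, and up to 4 of smallest p per family, predicted genes left out of the first 2. Transcript length and GC content came from GENCODE M21 (GRCm38), matched for 97.7% of genes. Windows of 50 bases shared with other genes were counted in the same transcripts. Of 240 genes named by the rule 31 shared more than 10% of their windows, and the share is not given beside each. Figures were drawn with matplotlib 3.10.9.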

Additional observations from a re-analysis of the deposited data

How the results depend on the processing

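The number of genes called was 827 to 2049 with 1 library left out, 390 to 1028 higher and 437 to 1021 lower, and 235 to 584 in the families against 651 with all libraries. Young replicate 1 (827), young replicate 3 (1031), aged replicate 2 (1359) and aged replicate 3 (1426) moved it most. A filter of 10 CPM in 3 libraries, which tested 5784 genes, gave 1179 calls (617 higher, 562 lower, 356 in families), and a fold threshold of 1.5 gave 328 (215, 113 and 103). Scaling by totals alone gave 405 lower genes. RLE factors gave 1090 higher and 1110 lower, DESeq2 1374 and 1419, the 2 groups alone 959 and 1003, and length and GC correction, chosen after seeing the data, 863 and 1009. Of the 62 families and annotation classes, 14 changed the direction holding more calls under another scaling and 15 after correction, and the cause was not tested. No named gene reversed under any of these settings, in which Gm5150, Fshr and Nr5a2 were not followed. Of 240 genes named by the rule 171 kept their call with every library left out and 162 also after correction, and leaving out young replicate 1 ended the call of 65 and leaving out young replicate 3 that of 48.

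The deviations of same-numbered libraries correlated at 0.17, 0.17 and -0.28 for numbers 1, 2 and 3. Not every library correlated best with its own number. With 3 libraries a group these values cannot decide whether the numbers pair the libraries. With the replicate block over the 6 libraries 1192 genes were called (602 higher, 590 lower, 356 in families), and with it over all 10 libraries 2318. Depth limits genes of a few counts, and floors of 3 counts cover counting error only.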

Other observations

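Some called genes had no count at all in 1 group. Of those named here, all but Il20ra were chosen after their values were seen. Spesp1, which encodes a protein of the sperm equatorial segment, had 0 counts in the young and 349 in the aged libraries together, at least 100-fold higher when the young group is set to 3 counts in all. Vipr2, a receptor for vasoactive intestinal peptide, had 0 and 53 counts (at least 15.2-fold higher), Reg2 0 and 94 (at least 27-fold higher), Hmga1b 0 and 66 (at least 19.0-fold higher) and Adssl1 0 and 45 (at least 12.9-fold higher). In the other direction Prr18 had 107 counts in the young and 0 in the aged libraries, at least 41.4-fold lower. These 6 held with every library left out, and 89.0% of the windows of Hmga1b are shared with other genes. Il20ra, given above, had 0 and 1754 counts (at least 504-fold higher) but held in only 1 of the 6 fits.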
